A study of Mus musculus with 6 samples.

Results

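The TGF-beta genes measured here were the ligand genes Tgfb1, Tgfb2 and Tgfb3, the latency gene Ltbp1, the receptor genes Tgfbr1, Tgfbr2 and Tgfbr3, and the target or feedback genes Tgfbi and Skil. They were chosen by name, and all 9 were on the array, with 13 of its 39429 probes and 9 of its 20659 named genes. The array was read on 6 RNA samples of the established mouse line C2C12, myoblasts that form myotubes once differentiation is induced. A control siRNA (si-NC) had been given to 3 samples and an siRNA targeting lncMGPF, a long noncoding RNA, to the other 3 (si-lncMGPF). All 6 were collected on day 2 of differentiation, so both groups share the line, the siRNA transfection and the induction. The comparison asks how transcript levels differ when lncMGPF is targeted. No probe carried the name lncMGPF, so whether the target was lowered was not analysed here.

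TGF-beta ligands are secreted in a latent form, held by their own propeptide and by latent TGF-beta binding proteins such as the Ltbp1 product in the matrix. Once released, a ligand brings together the type II receptor (Tgfbr2) and the type I receptor kinase (Tgfbr1), often helped by the co-receptor betaglycan (Tgfbr3), and the kinase activates Smad2 and Smad3. With Smad4 these enter the nucleus and switch on targets such as Tgfbi, a matrix protein, and Skil, which encodes the Smad repressor SnoN and so closes a feedback loop. In myoblasts TGF-beta is known as an inhibitor of differentiation.

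The RefSeq promoter table (build GRCm38.p6) held 6 of the 9 genes, with 8 start sites. The upstream sequences of Tgfb2, Tgfbr1 and Tgfbi are shown because these genes hold the 3 probes with the smallest p among the members, with values given below. Each line gives the 250 bases before the start site, 5′ to 3′ on the strand of the gene. Capitals mark 3 short motifs, searched on both strands. The Smad box was CAGAC, which reads GTCTG on the other strand. The GC box was GGGCGG, read there as CCGCCC, and the TATA box was TATAAA, read there as TTTATA. No matches overlapped. The Tgfb2 line is chr1:186705990-186706239 on the minus strand, the Tgfbr1 line, from the first of its 2 listed starts, chr4:47352972-47353221 on the plus strand, and the Tgfbi line chr13:56609336-56609585 on the plus strand.
Tgfb2: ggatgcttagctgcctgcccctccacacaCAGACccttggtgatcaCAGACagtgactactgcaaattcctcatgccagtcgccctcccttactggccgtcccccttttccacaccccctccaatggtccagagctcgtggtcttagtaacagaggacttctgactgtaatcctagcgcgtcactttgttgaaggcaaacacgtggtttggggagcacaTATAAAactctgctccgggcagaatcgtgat
Tgfbr1: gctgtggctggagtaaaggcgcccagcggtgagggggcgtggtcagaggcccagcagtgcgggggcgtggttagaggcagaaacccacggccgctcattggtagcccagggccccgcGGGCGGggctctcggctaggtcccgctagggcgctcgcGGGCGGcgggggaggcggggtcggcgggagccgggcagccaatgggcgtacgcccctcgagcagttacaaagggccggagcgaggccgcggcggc
Tgfbi: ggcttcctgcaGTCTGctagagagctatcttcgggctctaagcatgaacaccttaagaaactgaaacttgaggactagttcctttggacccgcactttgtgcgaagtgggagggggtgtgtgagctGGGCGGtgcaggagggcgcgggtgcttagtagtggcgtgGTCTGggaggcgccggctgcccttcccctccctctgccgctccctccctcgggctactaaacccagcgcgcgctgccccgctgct
Upstream of Tgfb2 stood 2 Smad boxes, whose first bases lay 221 and 204 bases before the start, and a TATA box 31 bases before it. The Tgfbr1 window was 74.8% G or C, against 53.6% for Tgfb2, and held 2 GC boxes but no Smad or TATA box. The window of the second Tgfbr1 start, not printed, was 52.8% G or C and held 1 Smad box and 0 GC boxes, and which start is used in these cells was not analysed here. Upstream of Tgfbi were 2 Smad boxes and 1 GC box. Of 32851 windows of the same length in the table, 42.2% held a Smad box, 32.7% a GC box and 12.4% a TATA box. These matches describe letters alone.

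Signals were processed intensities, shown as log2 signal minus the array's 75th percentile, so that 0 is a signal at that percentile. This scaled signal compares arrays for 1 probe and does not rank genes against each other. The 75th percentile ranged from 688.2 to 930.7 intensity units in si-NC and from 492.1 to 923 in si-lncMGPF. By the scan identifiers, slide 1 held all 3 si-NC arrays together with replicate 1 of si-lncMGPF, whereas slide 2 held only replicates 2 and 3 of si-lncMGPF. On slide 1, 64.1% to 65.3% of probes were well above background, and on slide 2 57.3% and 56.9%. Across probes, si-lncMGPF replicate 1 correlated at 0.993 to 0.995 with the si-NC arrays of its slide. With replicates 2 and 3 of its own group it correlated at 0.987 and 0.988. Values of a group are given in the order of replicates 1, 2 and 3. Negative control spots read 20.1 to 21.82 units on slide 1 and 37.29 and 42.49 on slide 2. Values on slide 1 or slide 2 are therefore given as the change of the si-lncMGPF arrays of that slide. Both subtract the same 3 si-NC arrays, so they are not independent of each other. Over all 14265 named genes tested, the median of these values was -0.07 on slide 1 and 0.06 on slide 2. Whether replicates were separate cultures is not stated, so the p-values cover only how these 6 samples vary, possibly for technical reasons, and the number of arrays limits precision. All 8 skeletal muscle markers, among them Myod1, Myog and Myh3, were well above background on all 6 arrays. Their log2 changes went both ways, from -0.30 for Acta1 to 0.17 for Mymk. The lowest adjusted p among them was 0.389, for Tnnt3 (-0.26, limma). The endothelial marker Cdh5, the adipocyte marker Adipoq, the osteoblast markers Sp7 and Ibsp and the smooth muscle marker Myh11 were above background on none. The endothelial markers Pecam1 (log2 change 0.66, limma, adjusted p = 0.335) and Kdr (-0.12) were above background on all 6. So were Smtn (-0.09) and Cnn1 (-0.41, limma, adjusted p = 0.246) for smooth muscle. Of the leukocyte markers, Adgre1 (0.14) was above background on all 6 and Ptprc (-0.13) on 5. The summed scaled signal of 3 fibroblast markers (Pdgfra, Dpt and Lum) was 0.489 to 0.517 in si-NC and 0.402 to 0.463 in si-lncMGPF. These markers disagreed, with -0.54 for Lum (limma, adjusted p = 0.191) and 0.11 for Pdgfra, while Dpt was above background on 1 array. The part of any of these markers in the results below was not tested.

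None of the 9 genes passed the test. Of the 13 probes 12 were well above background on all 6 arrays and were tested, and limma called 0 of 12 at an adjusted p below 0.05, where 0.105% of all 24661 tested probes were called (0.0284% higher and 0.0770% lower in si-lncMGPF). The lowest adjusted p of a member was 0.187, on a Tgfb2 probe. The members did not move one way, with 6 tested probes at a positive and 6 at a negative log2 change. At an unadjusted p below 0.05 stood 3 of the 12, against 15.8% of all tested probes. The 2 groups of arrays did not overlap on 7 of the 12 probes, with 4 higher and 3 lower in si-lncMGPF, where 23.0% of all tested probes did not overlap (9.63% higher, 13.4% lower).

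**Figure D1:**
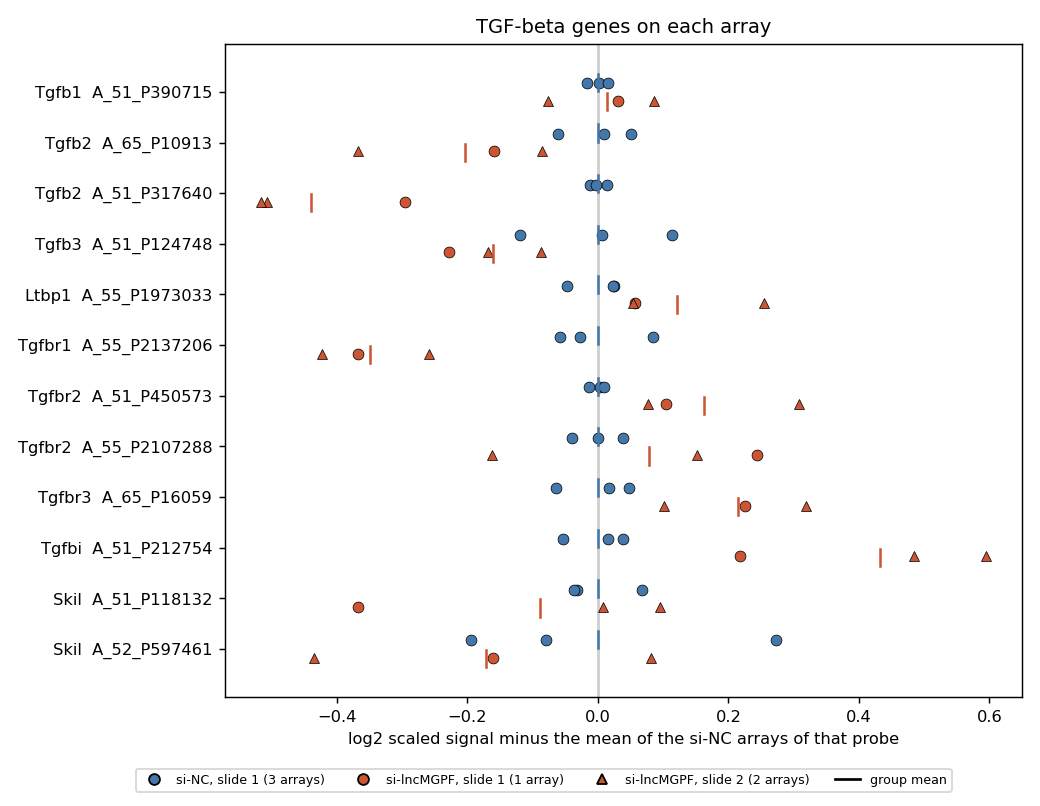
Log2 scaled signal of the 12 tested probes on each array, minus the mean of the si-NC arrays of that probe. Circles are slide 1 arrays, triangles slide 2 arrays, blue is si-NC, orange si-lncMGPF, and vertical strokes are group means (3 arrays each). All si-lncMGPF arrays lie left of all si-NC arrays for Tgfbr1 and both Tgfb2 probes, and right of them for Tgfbi, Tgfbr3, Ltbp1 and the brighter Tgfbr2 probe.

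Among the ligands, Tgfb2 had the most negative change, on 1 of its 2 probes. Probe A_51_P317640 had scaled signals of 0.13, 0.15 and 0.14 in si-NC and of -0.16, -0.37 and -0.38 in si-lncMGPF. Each si-lncMGPF array lay below the 3 si-NC arrays, which were within a narrow range (SD 0.01, n = 3, against SD 0.13, n = 3). The log2 change was -0.44 (SE 0.10, 95% interval -0.67 to -0.21), a signal 1.36-fold lower, and it did not pass (limma, adjusted p = 0.187). On the slide 1 array the change was -0.30 and on the slide 2 arrays -0.51. The same probe passed once si-lncMGPF replicate 1 was left out, but slide and group then cannot be told apart (limma, adjusted p = 0.00914). That fit called 16.6% of all tested probes, against 0.105% with all 6 arrays.

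The other Tgfb2 probe, A_65_P10913, was the brighter one and stands for the gene in the counts below. It had 0.59, 0.48 and 0.55 in si-NC and 0.38, 0.18 and 0.46 in si-lncMGPF. Here too all si-lncMGPF arrays were below all si-NC arrays, but si-lncMGPF replicate 3 lay close to si-NC replicate 2. Its log2 change was -0.20 (SE 0.10, 95% interval -0.45 to 0.05, limma, adjusted p = 0.381), with -0.16 on slide 1 and -0.23 on slide 2, and it was -0.12 without si-lncMGPF replicate 2. Both probes carry the accession NM_009367, so they read 1 transcript record and are not replicates of each other, and their difference of -0.24 was not tested.

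Tgfb3, whose ligand binds the same receptors, had 2.74, 2.97 and 2.86 in si-NC and 2.63, 2.69 and 2.77 in si-lncMGPF. The highest si-lncMGPF array lay above the lowest si-NC array, so the groups overlapped. For Tgfb3 the log2 change was -0.16 (SE 0.10, 95% interval -0.40 to 0.07, limma, adjusted p = 0.444), with -0.23 on slide 1 and -0.13 on slide 2, and it was -0.10 without si-NC replicate 2. Tgfb1, the ligand gene for which the family is named, had -2.17, -2.15 and -2.13 in si-NC and -2.12, -2.23 and -2.06 in si-lncMGPF. The si-NC arrays lay inside the range of the si-lncMGPF arrays. Its log2 change of 0.01 (SE 0.09) was the smallest of the 12, and the 95% interval of the linear ratio ran from 0.875 to 1.16. With single arrays left out, this value near 0 ran from -0.02 to 0.06.

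Ltbp1, which encodes the protein that tethers latent ligand to the matrix, had 2.48, 2.48 and 2.41 in si-NC and 2.51, 2.71 and 2.51 in si-lncMGPF. The si-lncMGPF arrays were all higher, 2 of them by little, and replicate 2 stood above the rest. For Ltbp1 the log2 change was 0.12 (SE 0.09, 95% interval -0.10 to 0.35, limma, adjusted p = 0.539), with 0.06 on slide 1 and 0.15 on slide 2. Without si-lncMGPF replicate 2 it was also 0.06.

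The receptor genes did not share a direction. Tgfbr1, the type I receptor kinase, had scaled signals of 1.67, 1.81 and 1.70 in si-NC and of 1.36, 1.47 and 1.31 in si-lncMGPF. The groups were apart by more than the range within either. The log2 change was -0.35 (SE 0.09, 95% interval -0.57 to -0.13), a signal 1.27-fold lower, and it did not pass (limma, adjusted p = 0.217). It was nearly the same on both slides, -0.37 on slide 1 and -0.34 on slide 2. The second probe, A_55_P2137211, was well above background on 3 of 6 arrays and was not tested. Its scaled signals ran from -6.15 to -5.26 in si-NC and from -7.11 to -4.87 in si-lncMGPF, near the background.

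Tgfbr2, the type II receptor that binds ligand first, had 3.47, 3.45 and 3.47 in si-NC and 3.57, 3.54 and 3.77 in si-lncMGPF on probe A_51_P450573. All si-lncMGPF arrays were higher, with replicate 3 well above the other two. For this probe the log2 change was 0.16 (SE 0.10, 95% interval -0.07 to 0.39, limma, adjusted p = 0.428), with 0.10 on slide 1 and 0.19 on slide 2, and it was 0.09 without si-lncMGPF replicate 3. Probe A_55_P2107288 of the same accession had 0.08 (SE 0.12, 95% interval -0.22 to 0.37, limma, adjusted p = 0.770). On that probe the groups overlapped, with 0.24 on slide 1 and -0.01 on slide 2, and the change was 0.20 without si-lncMGPF replicate 2 and 0.04 without its replicate 3.

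Tgfbr3, the co-receptor betaglycan, had -0.90, -0.87 and -0.98 in si-NC and -0.69, -0.82 and -0.60 in si-lncMGPF. Every si-lncMGPF array was above every si-NC array. For Tgfbr3 the log2 change was 0.22 (SE 0.10, 95% interval -0.01 to 0.44, limma, adjusted p = 0.331), with 0.22 on slide 1 and 0.21 on slide 2. Tgfbr1 and Tgfbr3 thus had values of opposite sign, but neither passed the test and the difference between them was not tested.

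**Figure D2:**
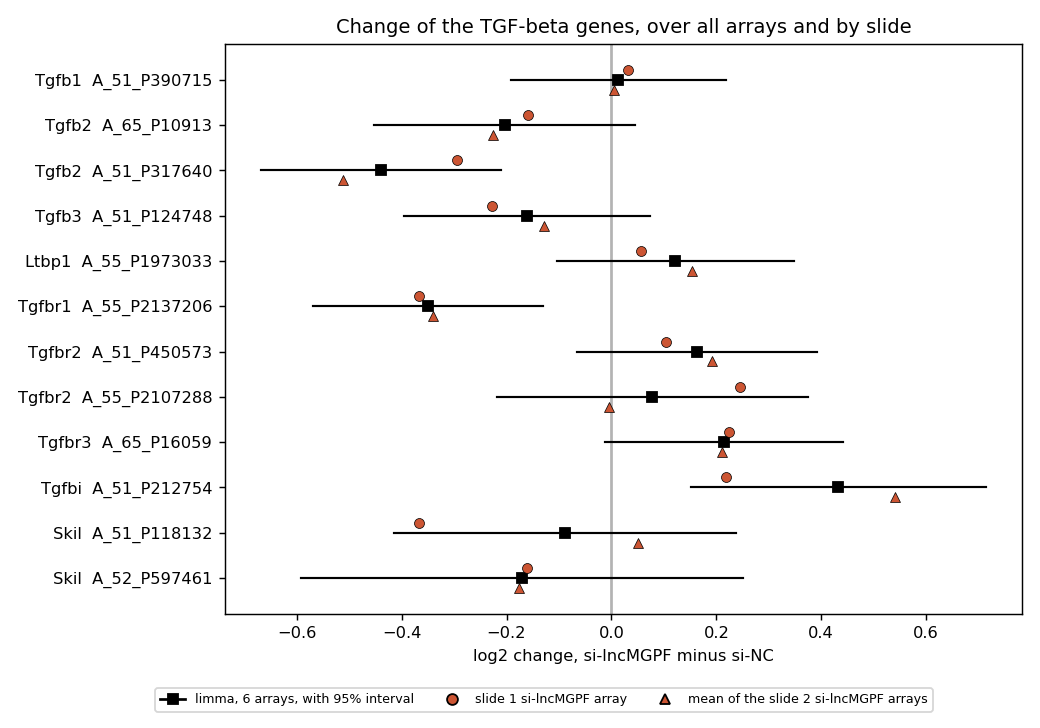
Log2 change, si-lncMGPF minus si-NC, of the 12 tested probes: squares and bars are the limma estimate over 6 arrays with its 95% interval, circles the slide 1 si-lncMGPF array, and triangles the mean of the slide 2 si-lncMGPF arrays, each against the 3 si-NC arrays. The 2 slides lie close together for Tgfbr1 (-0.37 and -0.34) and Tgfbr3 (0.22 and 0.21), and apart for Tgfbi (0.22 and 0.54) and Skil probe A_51_P118132 (-0.37 and 0.05).

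Tgfbi, the matrix protein induced by TGF-beta in many cells, had the most positive change of the members. Its scaled signals were -2.92, -3.02 and -2.95 in si-NC and -2.74, -2.37 and -2.48 in si-lncMGPF. The si-lncMGPF arrays were all higher, with the slide 2 arrays highest. The log2 change was 0.43 (SE 0.12, 95% interval 0.15 to 0.71), a signal 1.35-fold higher, and it did not pass (limma, adjusted p = 0.222). The change was 0.22 on slide 1 and 0.54 on slide 2, and with slide as a random block it was 0.28 (limma, adjusted p = 0.296). Its processed signal was 85.1 to 138 intensity units, and its probe was well above background on all 6 arrays. The 20.1 to 42.49 units of the negative control spots are a net signal, a different measure. Without si-lncMGPF replicate 1 the Tgfbi probe passed (limma, adjusted p = 0.0127), with slide and group not to be told apart. Of all tested probes, 16.6% passed in that fit.

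Skil, the SnoN repressor gene, had 1.50, 1.60 and 1.49 in si-NC on probe A_51_P118132 and 1.16, 1.62 and 1.54 in si-lncMGPF. Only si-lncMGPF replicate 1, the slide 1 array, stood apart, below all others. The log2 change was -0.09 (SE 0.14, 95% interval -0.41 to 0.24, limma, adjusted p = 0.763), with -0.37 on slide 1 and 0.05 on slide 2, where the sign turned. It was -0.05 without si-NC replicate 2, and -0.18 and -0.14 without si-lncMGPF replicates 2 and 3. The dimmer probe A_52_P597461 had -0.17 (SE 0.18, 95% interval -0.59 to 0.25, limma, adjusted p = 0.642), with -0.16 on slide 1 and -0.18 on slide 2, and 0.08 after normexp background correction. Its value ran from -0.30 without si-lncMGPF replicate 3 to -0.03 without si-NC replicate 1, with -0.27 without si-NC replicate 3 and -0.04 without si-lncMGPF replicate 2. Of the 2 target or feedback genes, Tgfbi was thus higher on every si-lncMGPF array and Skil was not.

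The other genes of the pathway were taken as 5 lists by role, 60 genes in all, of which 59 were on the array and 55 were tested, with the brightest probe for each gene. Limma called 0 of the 55, where 0.147% of all 14265 named genes tested were called. The median log2 change was 0.01, against 0.02 for all named genes. The groups did not overlap for 11 of the 55 (5 higher, 6 lower), against 22.4% of all named genes (9.70% higher, 12.7% lower). At an unadjusted p below 0.05 stood 7 of the 55, against 14.2%. These shares were close to those of all genes.

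Of the genes of latency and activation, 13 of 15 were tested, 10 with a negative change (76.9%, against 46.0% of all named genes tested, and a median of -0.04). Of these 13, the groups did not overlap for 1 (7.69%, against 22.4% of all named genes tested). Furin, a protease that cuts the ligand propeptide, had -0.26 (SE 0.09, limma, adjusted p = 0.258), and all si-lncMGPF arrays lay below all si-NC arrays. The integrin subunit gene Itgav, whose product takes part in releasing latent ligand, had 0.23 (SE 0.13, limma, adjusted p = 0.406), and 0.31 on another probe, but 0.15 without si-lncMGPF replicate 1. Decorin (Dcn), a proteoglycan that binds TGF-beta, had -0.22, with -0.50 on slide 1 and -0.08 on slide 2 (limma, adjusted p = 0.445), the latter also its value without si-lncMGPF replicate 1.

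Of the receptors and membrane modulators, 6 of 7 were tested (median -0.05). Pmepa1, a TGF-beta target that restrains receptor signalling, had 2.82, 2.94 and 2.87 in si-NC and 2.49, 2.57 and 2.50 in si-lncMGPF. All si-lncMGPF arrays were lower, with a log2 change of -0.36 (SE 0.08, 95% interval -0.56 to -0.16, limma, adjusted p = 0.200). Its values were -0.39 on slide 1 and -0.34 on slide 2, and a second probe had -0.31. Ldlrad4, a relative of Pmepa1, had -0.45 (SE 0.22, limma, adjusted p = 0.359) on a dim probe, with -0.08 on slide 1 and -0.63 on slide 2. Its value was -0.27 without si-NC replicate 3 and 0.09 after normexp. Cd109, a co-receptor that dampens signalling, had 0.18 (SE 0.11, limma, adjusted p = 0.442), with -0.01 on slide 1, and it was 0.27 and 0.11 without si-lncMGPF replicates 1 and 2.

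All 14 Smads and partners were tested (median 0.01). Smad7, the inhibitory Smad that TGF-beta itself induces, had 0.40, 0.63 and 0.54 in si-NC and 0.21, 0.39 and 0.07 in si-lncMGPF. All si-lncMGPF arrays were lower, replicate 2 by a hair. For Smad7 the log2 change was -0.30 (SE 0.12, 95% interval -0.58 to -0.02, limma, adjusted p = 0.291). Zfyve9, the SARA adaptor that brings Smads to the receptor, had 0.37 (SE 0.15, limma, adjusted p = 0.311), and Ppm1a, a phosphatase that acts on Smads, had 0.29 (SE 0.16, limma, adjusted p = 0.394). On the slide 1 array these were 0.63 and 0.57, and without it, si-lncMGPF replicate 1, 0.25 and 0.15. Ppm1a had 0.44 without si-lncMGPF replicate 2. The signalling Smads had changes of 0.08 (Smad2), 0.02 (Smad3) and 0.01 (Smad4), with adjusted p from 0.659 to 0.972 (limma).

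Of 20 induced targets 18 were tested, 12 with a positive and 6 with a negative change (33.3% negative, against the same 46.0%, and a median of 0.05). The list median turned sign between slides, with -0.11 on slide 1 and 0.06 on slide 2. For all named genes tested these medians were -0.07 and 0.06. The groups did not overlap for 6 of the 18 (3 higher, 3 lower), or 33.3%, against 22.4% of all named genes tested. Ccn2, connective tissue growth factor, had 4.54, 4.53 and 4.49 in si-NC and 4.01, 4.20 and 4.18 in si-lncMGPF. The si-lncMGPF arrays were all lower, with a log2 change of -0.39 (SE 0.09, 95% interval -0.61 to -0.18, limma, adjusted p = 0.197), -0.51 on slide 1 and -0.33 on slide 2. Periostin (Postn), a matrix protein, had -0.20 (SE 0.08, limma, adjusted p = 0.313), while Bhlhe40, a transcriptional repressor, had 0.27 (SE 0.10, limma, adjusted p = 0.285). The collagen gene Col1a1 had -0.02 (SE 0.12, limma, adjusted p = 0.942), and its groups overlapped. The other collagen genes of the list, Col1a2 and Col3a1, had 0.07 and 0.18, and their groups overlapped too. All of these collagen genes had a negative value on slide 1 and a positive one on slide 2. All 4 repressed targets were tested (median 0.13), with 0.16 for Myc, 0.25 for Id2, 0.10 for Id1 and -0.20 for Id3. Id1, Id2 and Id3 turned sign between slides. Id1 and Id2 had -0.20 and -0.11 on slide 1 and 0.25 and 0.42 on slide 2, and Id3 had 0.53 on slide 1 and -0.56 on slide 2. Id2 had 0.08 without si-lncMGPF replicate 2, and Myc and Id1 had 0.09 and 0.05 without si-lncMGPF replicate 3. Without si-lncMGPF replicate 1, 2 of the 55 genes passed, Pmepa1 and Ccn2, where 16.6% of all tested probes did. In that fit slide and group cannot be told apart.

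**Figure D3:**
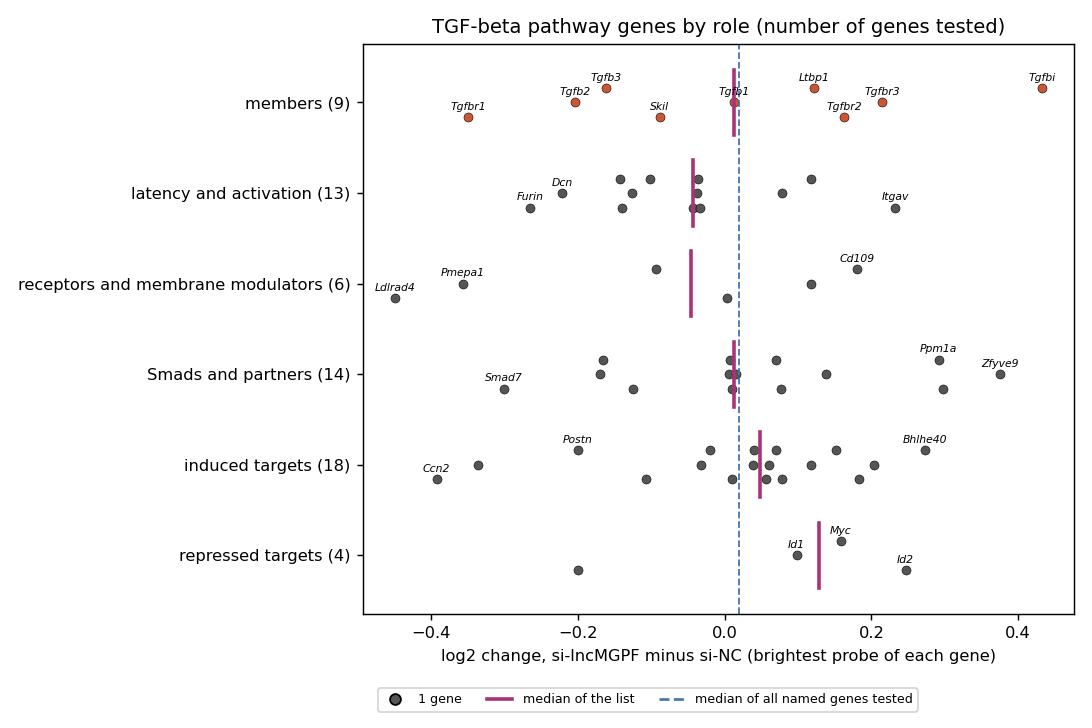
Log2 change, si-lncMGPF minus si-NC, of 9 members and 55 other pathway genes, 1 point for the brightest probe of each gene, with the number of genes tested in brackets. Thick strokes are list medians and the dashed line the median of all 14265 named genes tested (0.02); in each list points lie on both sides of 0, and no gene passed the test.

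The member with the smallest p among the probes that stand for genes was Tgfbr1. Over the 6 arrays, each gene centred on its own mean, its pattern was compared with those of 12388 genes above background on all arrays. The 3 nearest were Ankrd44, Pmepa1 and Serpinb9, with root mean square differences of 0.013, 0.029 and 0.030 on the log2 scale. Their log2 changes were -0.35, -0.36 and -0.34, against -0.35 for Tgfbr1. That these lie close follows from how the 3 were chosen. Pmepa1, one of the pathway genes above, was thus also among these 3, chosen out of many genes over few arrays.

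**Figure D4:**
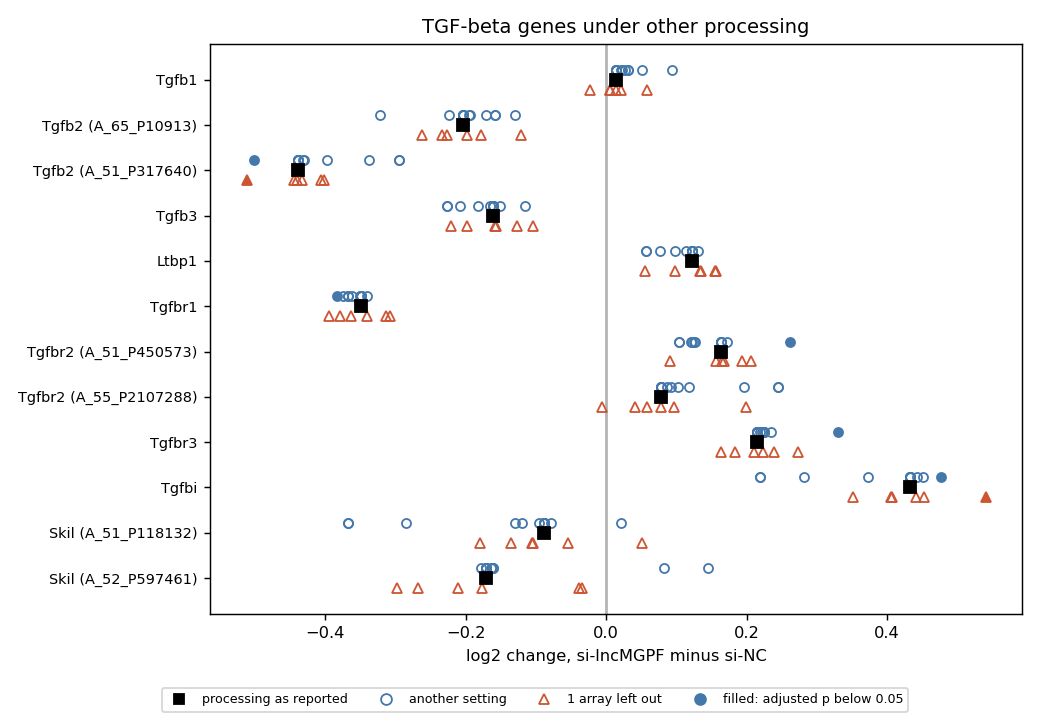
Log2 change of the 12 tested probes under the processing reported here (squares), under other settings (circles) and with 1 array left out (triangles), with filled symbols where the adjusted p was below 0.05. Tgfbr1 lies between -0.39 and -0.31 throughout and Tgfbi between 0.22 and 0.54, while both Skil probes lie on both sides of 0.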

How the data were processed

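Total RNA of 6 C2C12 samples was read on Agilent arrays in 1 colour (Cy3), per the labels. Values in the deposited scanner tables are intensity, from which, per the file headers, Feature Extraction 11.0.1.1 had removed background and spatial trend. The authors' series table held the same intensity values on every array. How the authors tested them is not stated in the labels.

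Control spots and outlier spots were left out, log2 signals were scaled by the 75th percentile of each array, and spots of a probe were averaged. No member value was missing. Probes entered the test when 1 group or both had them well above background throughout. Accessions without version were matched to RefSeq symbols, which named 27234 of 39429 probes. The brightest tested probe stood for a gene.

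The labels gave the groups. Their difference was fitted without covariates by lmFit and eBayes of limma 3.58.1, run in R 4.3.3. P-values were adjusted over 24661 probes by the Benjamini-Hochberg method, and 0.05 was the threshold. The fit was tested on simulated data that had no slide effect and planted changes larger than that of any member. That test does not bear on slide or on changes as small as those of the members. In each list genes past the threshold and the 3 with the smallest p were named; Ltbp1 and the other members were named in full. Smad2, Smad3, Smad4, Col1a1, Col1a2, Col3a1 and Id3 lie outside that rule: their values were seen first. The members and lists were chosen with earlier results of these data known.

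The other settings tried covered scaling (quantile, median), background (normexp on median spot signals, offset 50), filtering, the eBayes prior (trend, robust), weighting of arrays, blocks (slide, replicate number), subsets (slide 1 only, each array omitted), the series table and averaging over the probes of a gene. Figures were drawn with matplotlib 3.10.9.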

Additional observations from a re-analysis of the deposited data

How the results depend on the processing

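Over the alternatives run, the count of member probes past the threshold was 0 except with array weights (5 of 12) and when single arrays were left out (0 to 2), and that of the 55 pathway genes was 0 except with array weights (18) and when single arrays were left out (0 to 2). The counts of 2 came without si-lncMGPF replicate 1, where 16.6% of all tested probes passed. Array weights, which ran from 0.125 (si-lncMGPF replicate 1) to 9.38 (si-NC replicate 3), called 10149 of 24661 probes in all, against 26 without weights. The count over all probes was 6 with quantile normalization, 8 with normexp, 10 with slide as a block and 1 on slide 1 alone, and it ran from 0 to 4105 when single arrays were left out. It was 0 without a filter on dim probes, where 5277 of 39429 probes had an unadjusted p below 0.05 in limma, and 0 with the replicate block (4427 such probes). It was 0 without si-NC replicate 1, 2 or 3 or si-lncMGPF replicate 3 (2696, 1925, 1877 and 2232 such probes), 4 when replicate 2 of si-lncMGPF was left out and 4105 when its replicate 1 was; the mean of a gene's probes gives no count of probes. Whether same-numbered samples were paired is not stated. Their deviations from the group means correlated at 0.18, 0.32 and -0.06 across probes. These values cannot decide it, since replicate 1 of si-lncMGPF also differs from replicates 2 and 3 in slide. The replicate block called no member, as did the fit without it. The sign turned when single arrays were left out for Tgfb1 (from -0.023 without si-lncMGPF replicate 3 to 0.059 without its replicate 2), Tgfbr2 probe A_55_P2107288 (from -0.0055 without replicate 1 to 0.20 without replicate 2), Skil probe A_51_P118132 (from -0.18 without replicate 2 to 0.051 without replicate 1) and Id1 (from -0.0066 without replicate 2 to 0.25 without replicate 1). It also turned for Skil probe A_51_P118132 with array weights (0.020), Skil probe A_52_P597461 with normexp (0.082) and array weights (0.15), and Ldlrad4 with normexp (0.088). With slide as a block and on slide 1 alone it turned for Cd109 (-0.0090 in both), Id2 (-0.11 in both) and Id1 (-0.20 in both), and with slide as a random block for Id2 (-0.0045) and Id1 (-0.11). The causes were not tested. A fit with slide as a block rests on 1 si-lncMGPF array, since slide 2 holds no si-NC array. The probe of Tgfbi had a processed signal of 85.1 to 138 intensity units and the dimmer Skil probe 26.6 to 69.7. Both were well above background on all 6 arrays. The 20.1 to 42.49 units of negative control spots are a net signal, a different measure, so they set no floor for these values.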
